A study of Mus musculus with 144 samples.

Results

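Total liver RNA labelled Bmal1-/- was compared with total liver RNA labelled wild type at ZT14 (zeitgeber time, hours after lights on), early in the dark phase. The members are the 12 of 144 libraries of the series whose titles give this genotype, fraction and time, which are 6 libraries labelled Bmal1-/- and 6 labelled wild type. The mice were male, of strain C57BL/6J, held under 12 h light and 12 h dark with free access to food and water. Apart from the genotype, the labels give both groups the same strain, sex, feeding and time. The labels do not state age, which part of Bmal1 was deleted, or whether each library came from its own animal, so the p-values measure the spread between these libraries, which may be technical. Libraries were made with the QuantSeq kit, which sequences the 3′ end of each transcript, and levels are given as CPM (a library's gene counts scaled to a total of 1e6).

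The mammalian clock is a loop of transcription factors. BMAL1, encoded by Arntl, pairs with CLOCK or NPAS2 on E-box sequences and drives the Per, Cry and Nr1d genes, whose proteins repress the activators: PER and CRY block the dimer, and the nuclear receptors REV-ERB alpha and beta (Nr1d1, Nr1d2) repress Arntl, Npas2 and Clock through elements they share with the ROR receptors. In the liver this loop, together with feeding, sets the daily rhythm of genes for lipid, sugar and drug metabolism.

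Total gene counts ran from 4379549 to 9707676 in the 6 Bmal1-/- libraries (median 8018182) and from 6606105 to 9120158 in the 6 wild-type libraries (median 8061880). Among 30 pairings of libraries inside the same group 0 held equal counts, and any pairing differed by a chi-square of 11.2 or more per degree of freedom. Hepatocyte markers summed to 45249 to 81174 CPM in Bmal1-/- and 39793 to 84752 CPM in wild type, and 0 of 8 passed the test, though Alb (albumin) was lower without wild-type replicate 4 (-0.62, edgeR adjusted p 0.0433). In whole tissue, fewer cells of a type and less RNA per cell cannot be told apart.

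Of the libraries labelled wild type, 1 read unlike the rest. The library labelled wild-type replicate 4 lay at 16.6 on the first principal component (43.3% of the variance), where the other 5 wild-type libraries lay at -32.2 to -26.0 and the Bmal1-/- libraries at 14.2 to 27.6. Over the 683 genes that differed at least 2-fold when that library was left out, its median position was 0.875 on a scale from 0 (mean of the other wild-type libraries) to 1 (mean of Bmal1-/-), with quartiles of 0.609 and 1.069. It was nearer to the Bmal1-/- mean for 556 of these genes (81.4%) and nearer to the wild-type mean for 127. The median positions of the other 5 wild-type libraries, which make up that mean, were between -0.0317 and 0.0339, and those of Bmal1-/- libraries between 0.942 and 1.05. At some genes given below (Gdpd3, Abhd1, Cirbp) and at the 7 polyadenylation sites named it read like the other wild-type libraries, but these were chosen in fits that count it as wild type, which favours such genes and sites. In the fit without it, Abhd1 (edgeR adjusted p 1.01e-07), Gdpd3 (3.00e-06) and Cirbp (0.00298) passed as well. The named sites other than those of Sp1 and Fam89a also passed without it. Both ends of that scale are libraries of ZT14, and whether the genotype or the time on this library's label is in error was not tested. The library keeps its label here, and results are given with it and without it.

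**Figure D1:**
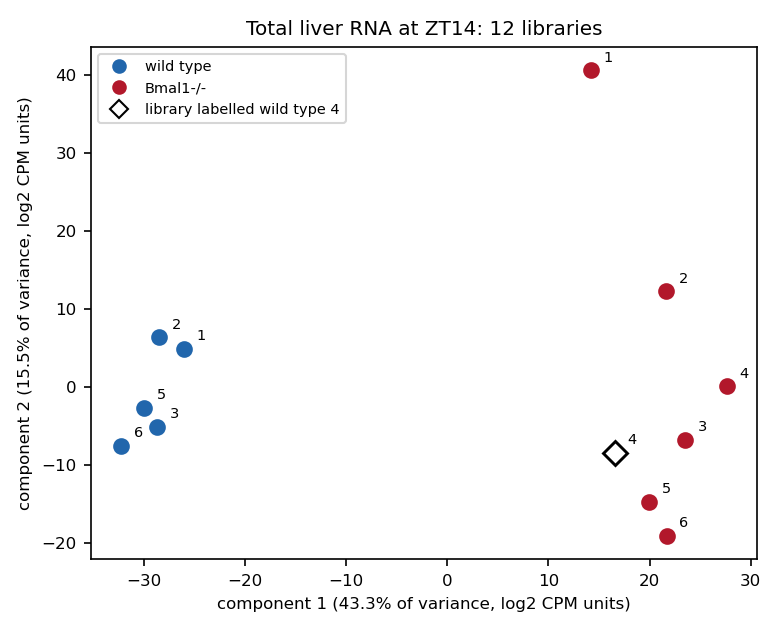
Principal components of the 12 ZT14 libraries from log2 CPM, each point a library with its replicate number, blue for wild type, red for Bmal1-/- and an open diamond for the library labelled wild-type replicate 4. On component 1 the diamond, at 16.6, sits among the Bmal1-/- libraries (14.2 to 27.6) and away from the other wild-type libraries (-32.2 to -26.0), and Bmal1-/- replicate 1, the shallowest library, sits apart on component 2 at 40.6.

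Of 12119 genes tested with edgeR's quasi-likelihood test, 1015 (8.38%) passed a Benjamini-Hochberg adjusted p of 0.05, of which 456 (3.76%) were higher and 559 (4.61%) lower in Bmal1-/-. Of these, 380 differed at least 2-fold, 167 higher and 213 lower. Without wild-type replicate 4 the count was 1741 of 12150 (14.3%), with 869 (7.15%) higher and 872 (7.18%) lower, and 683 differed at least 2-fold. Both fits called 1007 of the same genes, 0 of them in opposite directions. Leaving out any other single library gave between 566 genes (without wild-type replicate 3) and 957 genes (without Bmal1-/- replicate 1), and the count fell by over 1.5 times without wild-type replicate 2 (657), 5 (624) or 6 (633) and without Bmal1-/- replicate 3 (661) or 4 (640). Within replicates 4 to 6, which hold the library that stands apart, 12 genes passed, against 979 within replicates 1 to 3.

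Arntl, the targeted gene, was read in every Bmal1-/- library, at 8.85 CPM (lowest), 11.7 CPM (median) and 14.6 CPM (highest), against 1.003, 2.78 and 8.17 CPM in wild type. All Bmal1-/- libraries lay above all wild-type libraries, and the highest wild-type value was that of replicate 4. The log2 ratio was 1.54 (SE 0.33, edgeR adjusted p 0.011), and 1.86 (adjusted p 0.000278) without that library. Reads at the 3′ end of a transcript do not check a deletion elsewhere in the gene. The authors' filtered site list holds 3 Arntl sites on chromosome 7, and each was higher in Bmal1-/-. The levels were 3.56 CPM ± 1.34 (SD, n = 6) against 1.41 ± 0.921 between 113243662 and 113243709, and 1.85 ± 0.772 against 0.693 ± 0.604 between 113243577 and 113243616. At the most 3′ site, between 113314007 and 113314034, they were 1.16 ± 0.445 against 0.124 ± 0.110. On average this site held 17.4% of the counts at the 3 sites in Bmal1-/- and 6.26% in wild type. Most of the counts at these sites were thus read upstream of it. The gene was too low for the test of site usage.

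Of the 18 clock genes tested, 3 were higher, 7 were lower and 8 did not pass in Bmal1-/-. This is 55.6%, beside 8.38% of all genes tested, and the share called in each list below is read against that figure, or against 14.3% without wild-type replicate 4. The median log2 ratio of the 18 was -0.34, beside 0.02 over all genes tested. Without wild-type replicate 4, 5 were higher and 9 lower, and without any other single library 9 or 10 passed. With all libraries, the 3 higher were the activator genes Arntl and Clock and Cry1, which is itself a target of the activators. The 7 lower were Per2, Per3, Nr1d1, Nr1d2, Dbp, Tef and Ciart. The activator gene Npas2 and the targets Per1 and Cry2 were among the 8 that did not pass.

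Among the activators, Npas2, which can stand in for CLOCK, had the widest gap between most libraries. It was at 5.16, 7.59 and 9.90 CPM (lowest, median, highest) in Bmal1-/-, while 5 wild-type libraries lay at 0 to 0.220 CPM and replicate 4 at 6.06 CPM. With that library in, the log2 ratio was 2.91 (SE 0.91, edgeR adjusted p 0.0751), which did not pass. Without it the ratio was 6.35 (SE 0.47, adjusted p 1.11e-07). Clock was at 46.4 to 58.6 CPM in Bmal1-/- and, replicate 4 aside (52.1 CPM), at 23.2 to 35.7 CPM in wild type. Its ratio was 0.55 (SE 0.15, edgeR adjusted p 0.0371), and the call was lost without any 1 of the 10 libraries other than Bmal1-/- replicate 6 and wild-type replicate 4, with an adjusted p of up to 0.0826.

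The repressors of the loop moved in both directions. Per3 was at 0.913, 3.11 and 4.47 CPM in Bmal1-/- and at 2.42, 14.9 and 19.5 CPM in wild type, the lowest wild-type value being replicate 4. The log2 ratio was -2.29 (SE 0.40, edgeR adjusted p 0.00562). Per2 fell less, from a wild-type median of 56.7 CPM (31.5 to 71.1) to 33.5 CPM (25.9 to 37.0), a ratio of -0.84 (SE 0.18, adjusted p 0.00954). Per1, at 5.77 CPM (3.002 to 6.78) against 8.02 CPM (5.77 to 13.2), did not pass with all libraries (-0.71, SE 0.24, adjusted p 0.0756) and passed without replicate 4 (-0.79, adjusted p 0.035). Cry1 went the other way: it rose to 40.2 to 57.4 CPM in Bmal1-/- from 13.7 to 23.8 CPM in the 5 wild-type libraries other than replicate 4, which was at 46.0 CPM. Its log2 ratio was 1.09 (SE 0.23, edgeR adjusted p 0.00985), and 1.36 without that library. Cry2 differed by 0.22 (SE 0.13, adjusted p 0.327) and did not pass.

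The genes of the nuclear receptors REV-ERB alpha and beta both fell. Nr1d2 stood at 3.35, 4.89 and 5.54 CPM in Bmal1-/- and at 43.3 to 60.2 CPM in 5 wild-type libraries, with replicate 4 at 3.94 CPM, inside the Bmal1-/- range. The log2 ratio was -3.40 (SE 0.52, edgeR adjusted p 0.00428) with that library and -3.64 (SE 0.16) without it. Nr1d1 fell from a median of 5.59 CPM to 0.482 CPM, a ratio of -3.50 (SE 0.57, adjusted p 0.00299). Rora, which encodes an activator that binds the same elements, did not pass (0.43, adjusted p 0.157).

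Dbp, Tef and Hlf encode activators that bind D-boxes and carry the clock's rhythm to liver genes, and NFIL3 represses at the same boxes. Dbp was at 1.14, 2.87 and 3.69 CPM in Bmal1-/- and at 3.03, 18.6 and 38.6 CPM in wild type. Only replicate 4, at 3.03 CPM, reached into the Bmal1-/- range, and the log2 ratio was -3.002 (SE 0.49, edgeR adjusted p 0.0045). Tef fell from 161 CPM to 80.5 CPM in the median (-1.05, SE 0.18, adjusted p 0.00363). Hlf had a smaller ratio that did not pass (-0.50, SE 0.20, adjusted p 0.145), and it passed without replicate 4 (-0.62, adjusted p 0.0191). Nfil3 did not pass (0.29, SE 0.13, adjusted p 0.184), although its groups did not overlap (15.6 to 19.9 against 11.4 to 15.1 CPM), as was so for 3.14% of the genes tested.

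Ciart, a repressor of the CLOCK and BMAL1 dimer, was close to absent from the Bmal1-/- libraries. It gave 4 counts in all 6 of them together and 190 counts in wild type, where 5 libraries lay at 3.52 to 5.77 CPM and replicate 4 at 0 (fitted log2 ratio -5.34, SE 0.87, edgeR adjusted p 0.00319, a value that depends on the prior count). The E-box repressor Bhlhe41 was under the minimum for the test, with 3 counts in Bmal1-/- and 102 in wild type, a ratio per depth of 32.8 (95% Clopper-Pearson interval 10.9 to 161, counting error only). Wild-type replicate 4 held 0 of these counts, and the ratio was 37.9 (interval 12.6 to 187) without it. In the fit that kept all genes with at least 1 count, Bhlhe41 was lower (fitted log2 ratio -4.83, SE 0.84, edgeR adjusted p 0.00138). Bhlhe40, its relative, did not pass (-0.18, SE 0.17, adjusted p 0.581).

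**Figure D2:**
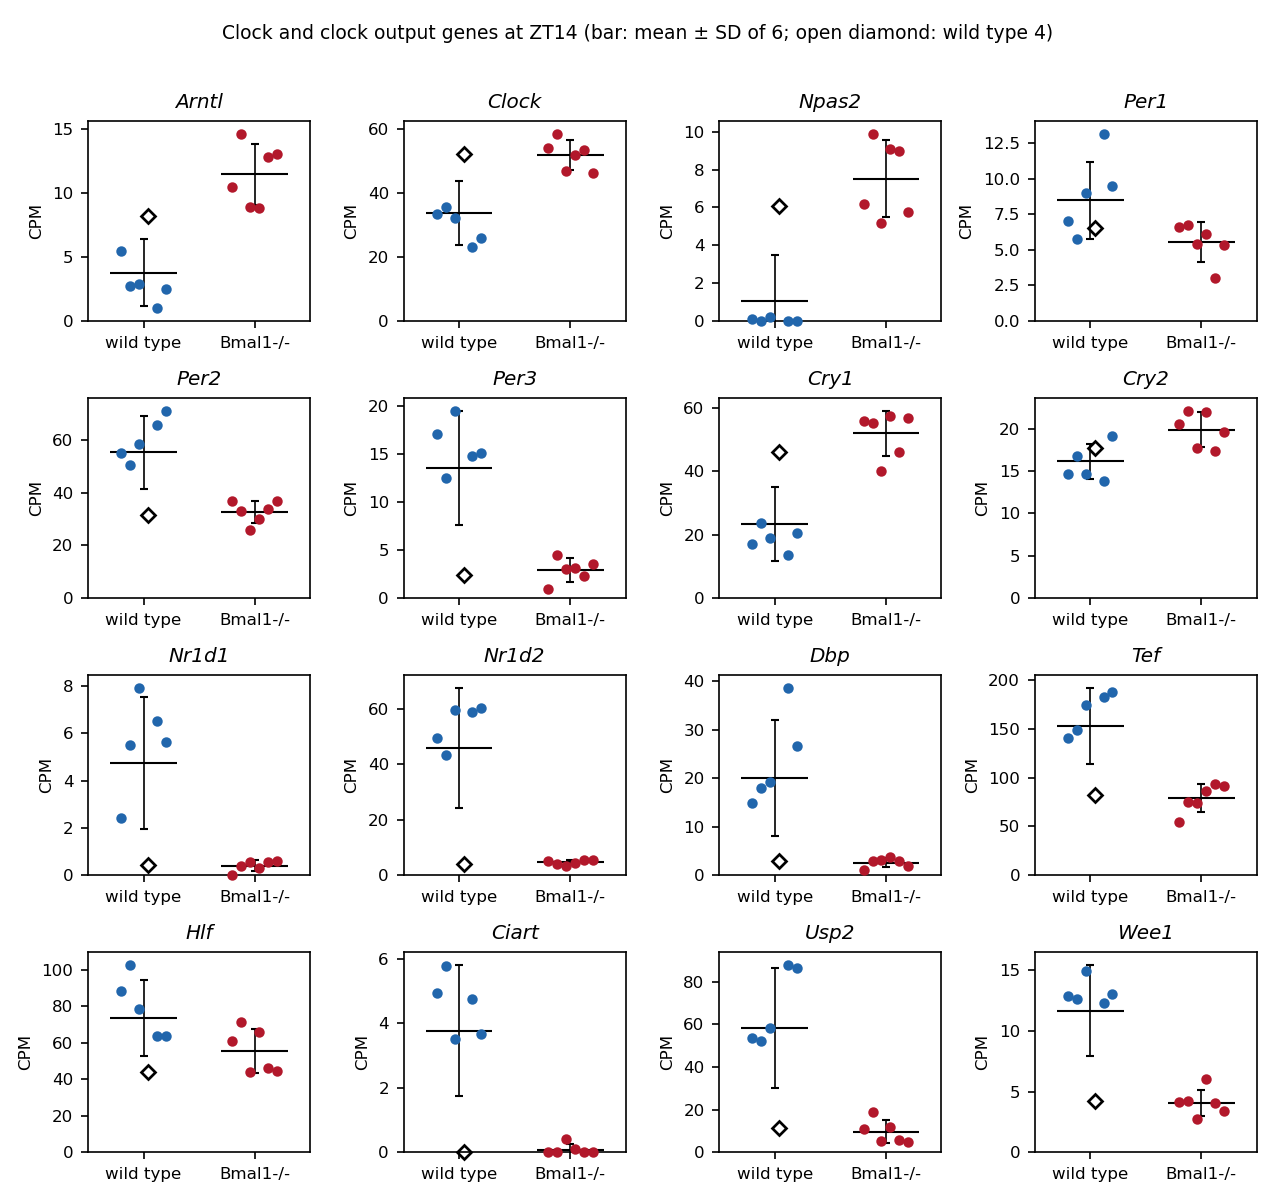
CPM of 16 clock and clock output genes in each ZT14 library, with the mean ± SD of 6 libraries as bars and an open diamond for wild-type replicate 4. For Nr1d2, Dbp, Per3 and Npas2 the diamond sits with or next to the Bmal1-/- libraries while the other 5 wild-type points stand apart from them.

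The 250 bases before the transcription start, taken from RefSeq (GRCm38.p6), are shown for Ciart, Per1, Tef, Cry1 and Per3. These hold the palindromic E-box CACGTG or the D-box TTATGTAA (searched on both strands), marked by capitals. The promoter of Bhlhe41, described above with fewer counts in Bmal1-/-, also has an E-box match and is not shown. Of the genes shown, the first 3 were at lower levels in Bmal1-/- (Per1 only without replicate 4). Cry1 was higher and Per3 lower, so that an E-box stands before genes of both directions. They lie at chr3:95882229-95882478 (minus strand) for Ciart, chr11:69098699-69098948 (plus strand) for Per1, chr15:81802423-81802672 (plus strand) for Tef, chr10:85185055-85185304 (minus strand) for Cry1 and chr4:151044666-151044915 (minus strand) for Per3.
Ciart: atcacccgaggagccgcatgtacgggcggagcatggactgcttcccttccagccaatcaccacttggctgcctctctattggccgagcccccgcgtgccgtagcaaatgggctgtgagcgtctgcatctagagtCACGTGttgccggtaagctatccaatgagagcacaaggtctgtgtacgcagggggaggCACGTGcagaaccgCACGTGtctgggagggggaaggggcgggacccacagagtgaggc
Per1: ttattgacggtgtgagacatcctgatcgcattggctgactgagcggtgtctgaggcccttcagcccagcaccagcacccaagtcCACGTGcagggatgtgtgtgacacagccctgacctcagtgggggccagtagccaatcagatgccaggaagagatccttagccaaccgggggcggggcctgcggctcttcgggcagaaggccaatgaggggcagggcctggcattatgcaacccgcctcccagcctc
Tef: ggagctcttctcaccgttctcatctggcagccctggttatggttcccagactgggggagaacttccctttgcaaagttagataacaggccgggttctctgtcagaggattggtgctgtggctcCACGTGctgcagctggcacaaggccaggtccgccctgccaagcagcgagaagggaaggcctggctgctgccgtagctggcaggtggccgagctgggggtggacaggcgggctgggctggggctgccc
Cry1: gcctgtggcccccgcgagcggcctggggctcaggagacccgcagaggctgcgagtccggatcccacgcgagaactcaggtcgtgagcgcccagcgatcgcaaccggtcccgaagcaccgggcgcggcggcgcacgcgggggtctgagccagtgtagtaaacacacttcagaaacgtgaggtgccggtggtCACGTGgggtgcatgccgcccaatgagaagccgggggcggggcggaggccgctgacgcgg
Per3: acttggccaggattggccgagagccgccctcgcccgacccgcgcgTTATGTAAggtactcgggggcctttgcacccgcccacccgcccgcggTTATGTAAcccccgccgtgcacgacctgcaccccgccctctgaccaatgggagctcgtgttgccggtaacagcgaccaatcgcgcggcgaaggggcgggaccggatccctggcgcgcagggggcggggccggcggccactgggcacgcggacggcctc

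Ciart holds 3 E-boxes, which begin 116, 58 and 44 bases before the start. In the windows shown the E-box of Per1 begins at 166, that of Tef at 127 and that of Cry1 at 60 bases, while the D-boxes of Per3 begin 205 and 158 bases before the start. Per1 and Tef have 2 promoters each in the table, of which the more upstream is shown, and the other promoter of Tef also holds an E-box. Promoters in the table, which reach from 250 bases before to 50 after the start, were matched for 16 of the 19 clock genes listed. An E-box was found in 5 of them (Per1, Cry1, Tef, Bhlhe41 and Ciart), in 7.15% of all 32851 promoters and in 8.09% of all genes with a promoter. Among tested genes with a promoter entry the share was 12.0%, against 14.1% of the 412 lower and 10.4% of the 309 higher genes. The D-box was found in 1 of the 16 clock genes, in 0.938% of all promoters and in 1.11% of all genes with a promoter. Among tested genes its share was 0.677%, against 1.94% of the lower (8 genes) and 1.29% of the higher genes (4 genes). The element AGGTCA of REV-ERB and ROR (both strands) was found in 5 of the 16 clock genes. It was in 16.3% of all promoters and 18.1% of all genes with a promoter. Among tested genes its share was 15.6%, against 21.1% of the lower and 18.4% of the higher genes. A match of letters in such a window does not show that a factor binds there.

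Among 19 tested genes listed as known outputs of the liver clock, 2 were higher and 8 lower (52.6%), with a median log2 ratio of -0.81. Without replicate 4 the counts were 5 and 10, and without any other single library 9 to 11 passed. Nrg4, a growth factor ligand, was at 0, 1.04 and 2.23 CPM in Bmal1-/- and at 11.7 to 16.0 CPM in 5 wild-type libraries, with replicate 4 at 1.06 CPM (-3.49, SE 0.58, edgeR adjusted p 0.00467). Usp2, a deubiquitinase, was at 4.84 to 18.8 CPM against 52.3 to 87.7 CPM, with replicate 4 at 11.4 CPM (-2.71, SE 0.50, adjusted p 0.00967). The deadenylase gene Noct (-1.68, SE 0.40, adjusted p 0.0216) and Wee1, which encodes a kinase that holds back mitosis (-1.61, SE 0.27, adjusted p 0.00296), were lower as well. Higher were Avpr1a, the liver's vasopressin receptor, at 38.7 to 60.5 CPM against 5.28 to 34.1 CPM (1.80, SE 0.35, adjusted p 0.0099), and the cell cycle inhibitor gene Cdkn1a, at 148, 223 and 347 CPM against 3.13, 15.7 and 115 CPM. Neither gene's groups overlapped, and replicate 4 was the highest wild-type library for both. The call of Cdkn1a (2.996, SE 0.78, adjusted p 0.0405) was lost when any library other than wild-type replicate 4 was left out (adjusted p up to 0.0886), while without replicate 4 the ratio was 4.19 (adjusted p 0.000345).

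Genes of fatty acid oxidation and other targets of PPAR alpha, the receptor that switches on fat burning, were lower: of 25 tested, 13 fell, 0 rose and 12 did not pass (52.0%, median log2 ratio -0.65). The peroxisomal thiolase gene Acaa1b was at 114, 228 and 379 CPM in Bmal1-/- and at 559, 920 and 1509 CPM in wild type. The groups did not overlap, and replicate 4 was the lowest wild-type library (-2.21, SE 0.32, edgeR adjusted p 0.0026). Fabp1, the main fatty acid carrier of the hepatocyte, fell by 1.20 on the log2 scale (SE 0.19, adjusted p 0.00253), and Cpt1a, which admits fatty acids to mitochondria, by 0.78 (SE 0.21, adjusted p 0.0307). Without replicate 4, 15 of the 25 fell and 0 rose. The count fell to 5 without wild-type replicate 2 or 3, to 6 without wild-type replicate 6 or Bmal1-/- replicate 4, to 7 without wild-type replicate 5 or Bmal1-/- replicate 3, and to 8 without Bmal1-/- replicate 2 or 5.

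Fatty acid synthesis was lower too in part: of 20 genes tested, 1 rose and 6 fell (35%, median -0.84), 8 passed without replicate 4, and 6 to 8 without any other single library. Thrsp, which promotes lipogenesis, was at 25.8, 111 and 327 CPM in Bmal1-/- and at 316, 1354 and 2949 CPM in wild type (-3.51, SE 0.67, edgeR adjusted p 0.0115). Replicate 4, at 316 CPM, was the only wild-type library within the Bmal1-/- range. Me1, which supplies NADPH for the pathway, fell by 1.89 on the log2 scale (SE 0.42, adjusted p 0.0207). Pnpla3, a lipid droplet enzyme, had 2 counts in Bmal1-/- and 249 in wild type, a ratio per depth of 120 (95% Clopper-Pearson interval 32.9 to 996, counting error only). Wild-type replicates 1 and 3 held 125 and 99 of these counts and replicate 4 held 0, and the ratio was 73.6 (interval 19.9 to 614) without replicate 1. The Pnpla3 call (adjusted p 0.028) was lost without each Bmal1-/- library in turn or wild-type replicate 3 (adjusted p up to 0.0676), and with genes of at least 1 count kept (adjusted p 0.061). Scd2, a desaturase, rose, with 6.39 to 32.8 CPM against 1.13 to 6.36 CPM (2.23, SE 0.46, adjusted p 0.0118). Fasn, the synthase itself, spread widely (50.5 to 287 against 201 to 943 CPM) and did not pass (-1.46, SE 0.49, adjusted p 0.0922).

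Cholesterol genes depended on the library that stands apart. Of 25 tested, 0 rose and 2 fell (8%, beside 8.38% of all genes, median 0.28), and without replicate 4, 3 rose and 2 fell (20%, beside 14.3%, median 0.47). The first share is close to that of all genes and is no result about the list. Hmgcs1, an early enzyme of the pathway, was at 282 to 1217 CPM in Bmal1-/- and at 147 to 225 CPM in 5 wild-type libraries, while replicate 4, at 1495 CPM, was above every other library. Its log2 ratio moved from 0.82 (SE 0.63, edgeR adjusted p 0.492) to 1.85 (adjusted p 0.00198) without that library. With 1 other library left out, 0 or 1 of the 25 passed in all but a single case (without Bmal1-/- replicate 6), and 0 passed without Bmal1-/- replicate 2 or 5 or wild-type replicate 1, 2, 3, 5 or 6.

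In bile acid synthesis and transport, 1 of 20 genes passed (5%, below the 8.38% of all genes, median 0.04), namely Cyp27a1, which oxidises the cholesterol side chain (-0.50, SE 0.12, adjusted p 0.0141). It was 1 of 5 without replicate 4 (25%, beside 14.3% of all genes), of which 4 were higher, and 2 passed without Bmal1-/- replicate 5.

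Of 19 glucose and glycogen genes, 1 rose and 4 fell (26.3%, median -0.47). Gys2, the liver's glycogen synthase, was at 18.5, 21.7 and 35.1 CPM in Bmal1-/- and at 74.9987 to 84.0 CPM in 5 wild-type libraries, with replicate 4 at 25.9 CPM. The log2 ratio was -1.64 (SE 0.26, edgeR adjusted p 0.00315), and -1.82 without that library. Slc37a4, which carries glucose 6-phosphate into the endoplasmic reticulum, fell by 1.06 (SE 0.22, adjusted p 0.0106). Ppp1r3c, which brings a phosphatase to glycogen, was higher in Bmal1-/- only without replicate 4 (2.09, adjusted p 0.000135, against 1.45 and 0.0835 with it). The count was 9 without replicate 4 and 8 without Bmal1-/- replicate 5. It was 3 without each of Bmal1-/- replicates 2, 3, 4 and 6 or wild-type replicates 2, 3, 5 and 6.

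In the insulin and nutrient response list, 2 of 16 genes rose and 2 fell (25%, median 0.35), and 3 or 4 passed without any single library other than replicate 4, against 7 without that one. Irs2, which couples the insulin receptor to its signal, was at 27.7, 32.2 and 39.0 CPM in Bmal1-/- and at 2.85, 3.44 and 22.7 CPM in wild type. The groups did not overlap, and the highest wild-type library, replicate 4, lay closer to Bmal1-/- than to the next wild-type library (5.89 CPM). The log2 ratio was 2.24 (SE 0.47, edgeR adjusted p 0.0156), and 3.04 (adjusted p 3.73e-08) without it. Fst, the activin binder follistatin, rose by 1.94 (SE 0.43, adjusted p 0.0116), and the transcription factor gene Foxo3 fell by 0.70 (SE 0.16, adjusted p 0.0138).

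Drug metabolism genes moved both ways: of 31 tested, 4 rose and 9 fell (41.9%, median -0.33). Por, which feeds electrons to all microsomal cytochromes P450, was at 42.8, 63.6 and 127 CPM in Bmal1-/- and at 352 to 491 CPM in 5 wild-type libraries, with replicate 4 at 85.7 CPM (-2.30, SE 0.46, edgeR adjusted p 0.0133). Cyp2a5 (coumarin hydroxylase) was at 23.1 to 73.4 CPM against 75.8 to 430 CPM, with no overlap and replicate 4 lowest in wild type (-2.67, SE 0.41, adjusted p 0.0038). Cyp2c29 and Cyp2c37 (cytochromes P450 that oxidise arachidonic acid) rose by 1.11 (adjusted p 0.0227) and 1.04 (adjusted p 0.0309). The call of Cyp2c29 was lost without Bmal1-/- replicate 4 or wild-type replicate 1, 3 or 6, and that of Cyp2c37 without Bmal1-/- replicate 2 or 4 or wild-type replicate 1, 2, 3 or 5. Of the 31 genes, 17 passed without replicate 4, 8 without Bmal1-/- replicate 2 or 4, 7 without wild-type replicate 1, 5 or 6, and 6 without wild-type replicate 3.

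**Figure D3:**
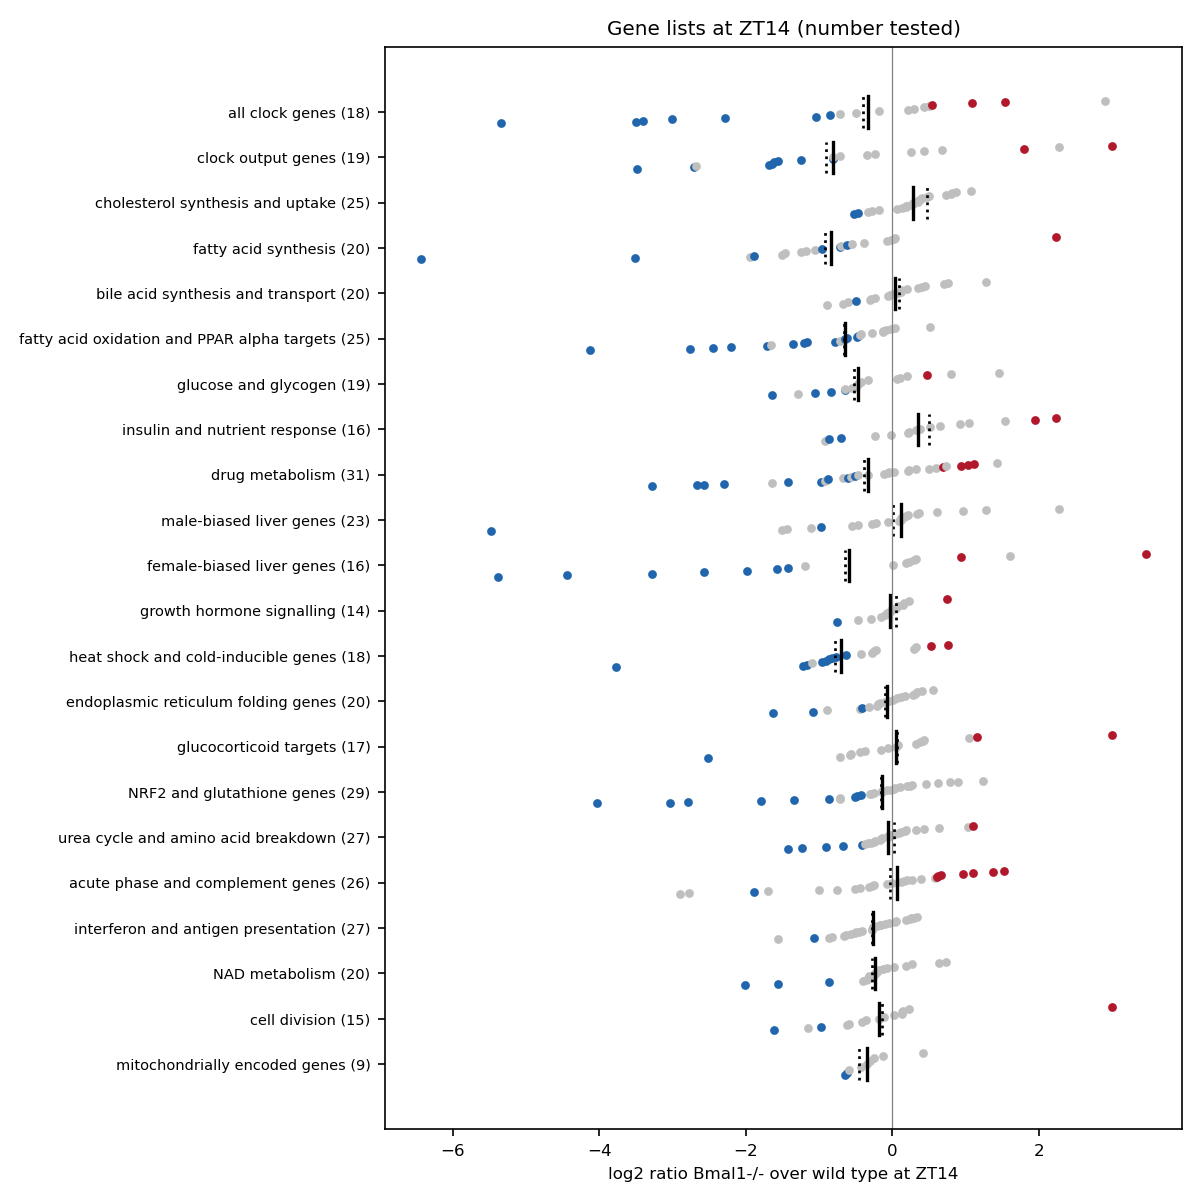
Log2 ratio of Bmal1-/- over wild type at ZT14 for each tested gene of 22 lists, red for higher and blue for lower genes that passed and grey for those that did not, with the list median as a solid bar (dotted without wild-type replicate 4). The fatty acid oxidation list has 13 blue and 0 red points with a median of -0.65, while the acute phase list has 7 red points and 1 blue point with a median of 0.06.

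Of 16 tested genes that are female-biased in mouse liver, 2 rose and 7 fell (56.2%, median -0.58), with 11 called without replicate 4 and 8 or 9 without any other single library. Of 23 male-biased genes, 2 fell and 0 rose (8.70%, near the 8.38% of all genes, median 0.11), and without replicate 4, 3 fell and 2 rose (21.7%, beside 14.3%). Sult1e1, an oestrogen sulphotransferase, was at 3.35 to 13.97 CPM in Bmal1-/- and at 0 to 0.439 CPM in 5 wild-type libraries, with replicate 4 at 3.78 CPM (3.46, SE 0.79, edgeR adjusted p 0.0211). That call was lost without wild-type replicate 3 (adjusted p 0.0508). Acot3, a peroxisomal thioesterase gene, fell from a wild-type median of 17.6 CPM to 0.936 CPM (-5.38, SE 1.09, adjusted p 0.0152). Nat8, an acetyltransferase gene, was at 0.457, 0.892 and 1.13 CPM in Bmal1-/- and at 16.8 to 60.6 CPM in 5 wild-type libraries, with replicate 4 lowest of all 12 at 0.303 CPM (-5.48, SE 0.92, adjusted p 0.0071). In the growth hormone pathway, Stat5b was higher (0.74, adjusted p 0.0277) and Igfals lower (-0.75, adjusted p 0.0235) among 14 tested (14.3%, median -0.03). The same 2 passed without replicate 4, and their share (14.3%) was then that of all genes (14.3%). Neither of these 2 calls held without Bmal1-/- replicate 3 or 4 or wild-type replicate 5 or 6, and 1 of them held without Bmal1-/- replicate 5 or wild-type replicate 1, 2 or 3.

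Heat shock and cold-inducible genes split by kind. Of 18 tested, 2 rose and 9 fell (61.1%, median -0.70), 13 passed without replicate 4, and 8 to 12 without any other single library. The 2 that rose were the cold-inducible RNA-binding protein genes: Cirbp was at 11.4, 13.5 and 14.3 CPM in Bmal1-/- and at 4.91, 7.99 and 8.48 CPM in wild type, and Rbm3 was at 17.4, 26.9 and 28.7 CPM against 14.04, 16.4 and 17.9 CPM. Cirbp showed no overlap (0.76, SE 0.15, edgeR adjusted p 0.00647), and replicate 4, though highest at 8.48 CPM, was next to the following wild-type library at 8.44 CPM. The ratio of Rbm3 was 0.53 (SE 0.13, adjusted p 0.0169). All 9 that fell encode chaperones or their partners. Hspb1, a small heat shock protein, was at 0.346, 0.652 and 1.76 CPM in Bmal1-/- and at 2.27, 10.2 and 17.1 CPM in wild type, with no overlap and replicate 4 lowest (-3.77, SE 0.45, adjusted p 0.000551). The inducible Hspa1b fell by 1.22 (SE 0.24, adjusted p 0.00798), Hspa4l by 0.96 (SE 0.16, adjusted p 0.00307) and the constitutive Hspa8 by 0.82 (SE 0.19, adjusted p 0.0169).

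Of 20 folding genes of the endoplasmic reticulum tested, 3 fell and 0 rose (15.0%, median -0.07), 5 without replicate 4 and 2 to 4 without any other single library. Herpud1, part of the degradation machinery, fell by 1.63 (SE 0.27, edgeR adjusted p 0.00365), from 359 CPM to 99.8 CPM in the median. Hspa5, the main chaperone there, had medians of 1546 CPM in wild type and 1515 CPM in Bmal1-/- and did not pass (-0.21, adjusted p 0.457). Of 17 glucocorticoid targets, 2 rose and 1 fell (17.6%, median 0.05). Fkbp5, a co-chaperone of the glucocorticoid receptor, was at 4.02, 6.25 and 9.90 CPM in Bmal1-/- and at 11.1, 39.5 and 49.1 CPM in wild type, with no overlap (-2.52, SE 0.34, adjusted p 0.00178). The genes that rose were Cdkn1a, given above, and the kinase gene Sgk1 (1.16, SE 0.31, adjusted p 0.0353), whose call held only without Bmal1-/- replicate 5 or wild-type replicate 4. The list's count was 5 without replicate 4, 2 without Bmal1-/- replicate 5 or wild-type replicate 3, and 1 without each of the other libraries.

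Of 29 NRF2 and glutathione genes, 9 fell and 0 rose (31.0%, median -0.14), and without replicate 4, 8 fell and 5 rose. Gstt2, a glutathione transferase, was at 7.32, 8.10 and 13.0 CPM in Bmal1-/- and at 26.3, 75.8 and 100 CPM in wild type, with no overlap and replicate 4 lowest (-3.03, SE 0.32, edgeR adjusted p 0.000502). Gsta4, which clears lipid peroxidation products, fell by 1.79 (SE 0.30, adjusted p 0.0045). The count was 4 without Bmal1-/- replicate 2 or 3 or wild-type replicate 3 or 6, and 5 without Bmal1-/- replicate 1, 4 or 6 or wild-type replicate 2. Gstt2 and other genes named here with close copies in the genome (the Gsta, Cyp2c, Cyp4a, Hspa1 and Saa families) share sequence with those copies, so that the counting may have split their reads.

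In the urea cycle and amino acid breakdown, 1 of 27 genes rose and 5 fell (22.2%, median -0.06), 9 passed without replicate 4, and 5 or 6 without any other single library. Asl, which splits argininosuccinate, was at 34.5, 43.9 and 71.0 CPM in Bmal1-/- and at 93.7, 120 and 153 CPM in wild type, with no overlap (-1.42, SE 0.17, edgeR adjusted p 0.000395). The mitochondrial alanine transaminase Gpt2 was at 122 to 180 CPM against 198 to 382 CPM, also apart (-1.24, SE 0.17, adjusted p 0.000913). Cbs, which commits homocysteine to cysteine, rose by 1.11 (SE 0.25, adjusted p 0.0145), and Cps1, the entry enzyme of the urea cycle, did not pass (0.12, adjusted p 0.694).

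Acute phase and complement genes had more rises than any other list: of 26 tested, 7 rose and 1 fell (30.8%, median 0.06), 12 passed without replicate 4 (8 higher, 4 lower), and 7 to 9 without any other single library. All 3 fibrinogen chains rose, Fga by 0.63 (SE 0.15, edgeR adjusted p 0.0178), Fgb by 0.61 (SE 0.14, adjusted p 0.0144) and Fgg by 0.66 (SE 0.14, adjusted p 0.00873). Ceruloplasmin (Cp) was at 1945 to 2393 CPM against 821 to 1544 CPM (0.96, SE 0.16, adjusted p 0.00302), and the hyaluronan-binding Itih3 at 608, 739 and 867 CPM against 93.2, 245 and 379 CPM (1.52, SE 0.34, adjusted p 0.0169). Neither overlapped, and for Itih3 replicate 4 was the lowest wild-type library, on the far side from Bmal1-/-. Saa4, a constitutive serum amyloid A, fell (-1.89, SE 0.41, adjusted p 0.017), with replicate 4, at 59.6 CPM, below all Bmal1-/- libraries (73.6 to 133 CPM) and the other wild-type libraries at 324 to 565 CPM.

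Of 20 genes of NAD metabolism, 3 fell and 0 rose (15.0%, median -0.24), with 5 called without replicate 4 and 3 or 4 without any other single library. Nampt, the rate-limiting enzyme of NAD salvage, was at 24.1, 30.1 and 33.4 CPM in Bmal1-/- and at 74.7 to 105 CPM in 5 wild-type libraries, with replicate 4 at 28.2 CPM (-1.56, SE 0.26, edgeR adjusted p 0.00358). Nmrk1, a nicotinamide riboside kinase, fell by 2.00 (SE 0.40, adjusted p 0.0112). Among 27 interferon and antigen presentation genes, 1 fell (3.70%, below the 8.38% of all genes, median -0.27), Gbp2 (-1.08, adjusted p 0.0256), 2 fell without replicate 4 (7.41%, beside 14.3%), and 0 passed without Bmal1-/- replicate 3, 4 or 6 or wild-type replicate 1, 3 or 6. Of 9 mitochondrially encoded genes, 2 fell (22.2%, median -0.34), among them mt-Cytb at 7363 to 13772 CPM against 14199 to 17535 CPM (-0.64, SE 0.16, adjusted p 0.0198, lost without wild-type replicate 3 at 0.0516). The mitochondrial count was 4 without replicate 4, 1 without Bmal1-/- replicate 3 or 4 or wild-type replicate 1 or 2, and 0 without wild-type replicate 3.

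In the cell division list, 1 of 15 genes rose (Cdkn1a) and 2 fell (20%, median -0.17). Ccnd1, the cyclin of early G1, was at 16.9, 20.5 and 24.6 CPM in Bmal1-/- and at 28.0, 34.2 and 62.8 CPM in wild type, with no overlap (-0.97, SE 0.18, edgeR adjusted p 0.00562), and Wee1 is given above. The count was 3 without replicate 4 and 2 without any other single library, Cdkn1a being the gene lost.

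Over all genes, the largest rises with groups apart and at least 50 mean counts included genes in which replicate 4 read as wild type. Abhd1, a hydrolase gene, was at 20.2, 28.7 and 42.9 CPM in Bmal1-/- and at 1.43, 2.06 and 2.33 CPM in wild type, with replicate 4 at 2.12 CPM (3.87, SE 0.25, edgeR adjusted p 2.41e-07). Gdpd3, a lysophospholipase D gene, was at 9.12, 15.1 and 28.0 CPM against 0.246, 0.701 and 1.21 CPM, with replicate 4 at 0.454 CPM (4.42, SE 0.37, adjusted p 1.93e-05). In neither gene did a wild-type library come near the Bmal1-/- range. Arhgap10, a GTPase activator gene (2.72, SE 0.31, adjusted p 0.000211), Pla2g7, which encodes a secreted phospholipase (2.88, SE 0.36, adjusted p 0.000647), and the muscarinic receptor gene Chrm3 (2.97, SE 0.56, adjusted p 0.00923) followed, each with replicate 4 as the highest wild-type library, at 3.78, 2.57 and 4.995 CPM. The other 3 rises by this rule are Cdkn1a, Irs2 and Scd2.

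Among the largest falls by the same rule, Smim22, a small membrane protein gene, was at 0.228, 0.637 and 0.927 CPM in Bmal1-/- and at 2.57, 17.2 and 19.4 CPM in wild type (-4.60, SE 0.46, edgeR adjusted p 0.00018). Replicate 4 was the lowest wild-type library. Upp2, a uridine phosphorylase gene, was at 24.9, 53.9 and 87.3 CPM against 146, 505 and 816 CPM (-3.31, SE 0.42, adjusted p 0.00192). Dio1, the deiodinase that activates thyroid hormone in liver, was at 1.39, 5.43 and 20.3 CPM against 21.6, 101 and 155 CPM (-3.57, SE 0.70, adjusted p 0.013). Replicate 4 was lowest in wild type for both of these and for the protease gene Pcsk4 (-2.76, SE 0.37, adjusted p 0.00143). Gsta2 fell as well (-2.79, SE 0.62, adjusted p 0.0184), and Cyp2a5, Gstt2 and Cyp4a10, a fatty acid omega-hydroxylase, complete the 8. Cyp4a10, at 4.12 to 80.8 CPM against 84.6 to 451 CPM (-2.76, SE 0.67, adjusted p 0.0315), lost its call without Bmal1-/- replicate 1, 3, 4 or 5 or wild-type replicate 2, 3, 5 or 6 (adjusted p up to 0.0676).

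Markers of other cells were examined beside these genes. Bile duct markers summed to 61.0 to 133 CPM in Bmal1-/- and 16.3 to 66.6 CPM in wild type, with replicate 4 highest in wild type. The sum came from Sox9 (1.71, edgeR adjusted p 0.0202) and Spp1 (2.00, adjusted p 0.00923), the 2 of 6 that could be tested, while Krt19, the defining keratin, averaged 0.1005 CPM in Bmal1-/- and 0.497 CPM in wild type and Krt7 0.182 and 0.465 CPM. Pancreatic acinar markers summed to 76.3 to 169 CPM against 15.8 to 94.8 CPM, nearly all of it from Cela1 (1.33, adjusted p 0.0469), while 7 of the 11 listed, among them Pnlip, Cpa1 and Amy2a5, had 0 counts in all 12 libraries. Summed markers of Kupffer cells (252 to 487 against 280 to 573 CPM), sinusoidal endothelial cells (215 to 342 against 209 to 309 CPM) and stellate cells (379 to 470 against 275 to 441 CPM) overlapped between the groups. Among these, 1 of 10 endothelial markers (Bmp2, 0.52, adjusted p 0.0305) and 1 of 9 stellate markers (Reln, 0.55, adjusted p 0.034) were higher, and of 10 Kupffer cell markers 0 passed, with Marco lower only without replicate 4 (-1.83, adjusted p 0.0303). Of the adipocyte markers, 1 of 3 tested passed, Cfd, which was lower (-6.54, SE 1.69, edgeR adjusted p 0.0381). It had 3 counts in Bmal1-/- and 354 in wild type, where replicates 1 to 3 were at 5.26, 10.3 and 23.9 CPM. Replicates 4 and 5 were at 0 and replicate 6 at 0.657 CPM, so that its groups overlapped. The summed level of the adipocyte markers overlapped as well (8.22 to 21.6 against 7.75 to 38.4 CPM). The part of such cells in the results above was not tested.

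The same comparison was made at the other 5 times, each with its own 6 and 6 libraries. It called 406 genes at ZT2, 1190 at ZT6, 2295 at ZT10, 1037 at ZT18 and 644 at ZT22, beside 1015 at ZT14. Across genes, which are not independent replicates, the log2 ratios at ZT14 had a Pearson correlation of 0.590 with those at ZT2, 0.714 at ZT6, 0.784 at ZT10, 0.768 at ZT18 and 0.752 at ZT22, over 11811 to 11947 genes. Of the genes called at ZT14, between 84.8% (ZT2) and 97.4% (ZT18) had the same sign at another time. Without wild-type replicate 4 of ZT14 these shares ran from 76.9% (ZT2) to 94.3% (ZT10). The share of same sign over all genes tested was not taken. Abhd1 and Gdpd3 passed at all 6 times, with Gdpd3 between 4.42 (ZT14) and 5.08 (ZT22) on the log2 scale.

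Whether the difference at ZT14 departs from the mean difference at the other 5 times was tested in 1 fit of all 72 total RNA libraries. Of 12082 genes, 4 passed (0.0331%), of which 1 had a more positive (0.00828%, Magi1) and 3 a more negative difference at ZT14 (0.0248%, Homer2, Tef and Wee1), and 871 had an unadjusted p under 0.05. Without replicate 4, 113 of 12084 passed (0.935%), 57 with a more positive (0.472%) and 56 with a more negative difference at ZT14 (0.463%).

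Magi1, a junction scaffold gene, was at 19.5 CPM ± 4.12 (SD, n = 6) in Bmal1-/- and 10.5 ± 2.96 in wild type at ZT14, and at ZT6 at 17.4 ± 3.17 and 17.6 ± 2.64. Its log2 difference was 0.77 larger at ZT14 than at the other times (SE 0.16, edgeR adjusted p 0.0224). Homer2, a scaffold gene of signalling complexes, peaked in wild type at ZT14 (81.1 ± 21.4 CPM, against 33.4 ± 6.80 in Bmal1-/-) and was at 34.0 ± 4.52 and 32.0 ± 5.17 CPM at ZT2. Its departure was -0.93 (SE 0.18, adjusted p 0.0224). Tef changed sign over the day, from a log2 ratio of 1.38 at ZT2 through -1.50 at ZT10 and -1.05 at ZT14 to 0.71 at ZT22, and Wee1 ran in the same way from 1.05 at ZT2 through -1.96 at ZT10 and -1.61 at ZT14 to 0.14 at ZT22. Their departures were -1.09 (SE 0.22, adjusted p 0.0224) and -1.32 (SE 0.28, adjusted p 0.0421). Over the 6 times the mean level of Tef ran from 79.1 to 100 CPM in Bmal1-/- and from 30.7 to 223 CPM in wild type, and that of Wee1 from 4.09 to 5.201 and from 2.33 to 17.6 CPM.

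Each of these 4 calls rested on single libraries. Magi1 lost its call without Bmal1-/- replicate 3 or 4 or wild-type replicate 1, 2, 3, 5 or 6, Wee1 without Bmal1-/- replicate 2, 3, 5 or 6 or the same wild-type libraries, Tef without Bmal1-/- replicate 3 or wild-type replicate 2, 3, 5 or 6, and Homer2 without Bmal1-/- replicate 3 or wild-type replicate 2, 5 or 6. The highest adjusted p was 0.197 for Magi1 and Wee1 and 0.109 for Tef and Homer2. All 4 passed without replicate 4, with adjusted p between 4.26e-05 and 0.000455. The count over all genes was 13 without Bmal1-/- replicate 1, 2 without wild-type replicate 1, 1 without wild-type replicate 3, and 0 without Bmal1-/- replicate 3 or wild-type replicate 2, 5 or 6.

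Among genes whose departure passed only without replicate 4, Fkbp5 was at 6.66 CPM ± 1.99 (SD, n = 6) in Bmal1-/- at ZT14. In wild type it was then at 40.0 ± 8.36 CPM without replicate 4 and 35.2 ± 13.99 CPM with it. At ZT10 Fkbp5 was at 12.1 ± 9.46 CPM in Bmal1-/- and 14.2 ± 3.17 CPM in wild type. Its departure was -2.56 (SE 0.58, edgeR adjusted p 0.012, against 0.0909 with replicate 4). Hspa1b was lower in Bmal1-/- at ZT14 (-1.35 without replicate 4, -1.22 with it) and higher at ZT10 (1.83, edgeR adjusted p 0.00014). Its wild-type level at ZT14 was 24.6 ± 8.10 CPM without replicate 4 and 22.8 ± 8.52 CPM with it, and 2.62 ± 0.780 CPM at ZT10. The departure of Hspa1b was -1.95 (edgeR adjusted p 0.0272, against 0.144 with replicate 4). Por (-1.92, adjusted p 0.00115) and Usp2 (-2.10, adjusted p 0.00115) were in the same group, each at 0.0528 with all libraries. Npas2 had a departure of 2.96 (adjusted p 0.037) without replicate 4 and of -0.47 (adjusted p 0.91) with it. Of the 113 genes, 107 also differed at ZT14 itself without that library.

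**Figure D4:**
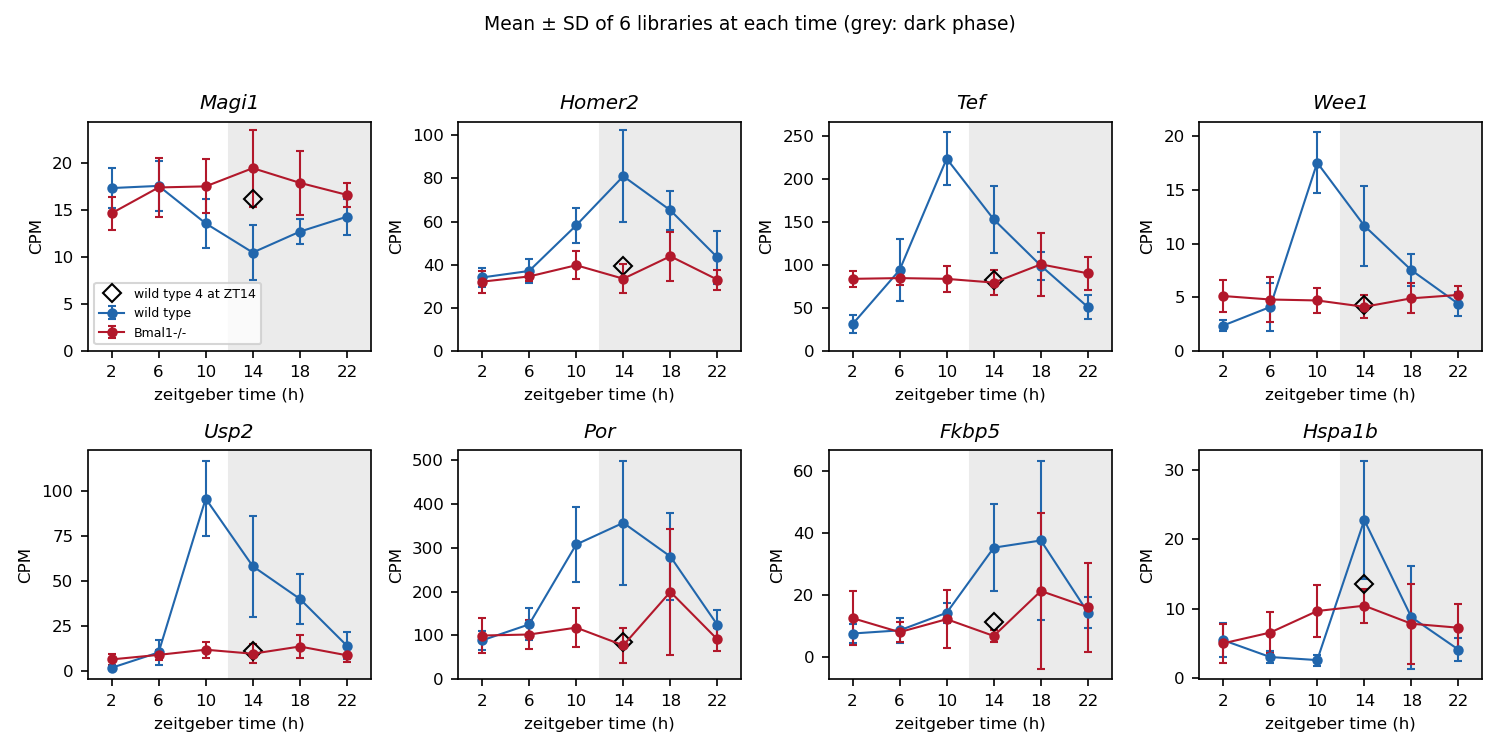
Mean ± SD of CPM at each zeitgeber time (h) in 6 wild-type (blue) and 6 Bmal1-/- (red) libraries for 8 genes, with the dark phase in grey and wild-type replicate 4 at ZT14 as an open diamond. Homer2 and Hspa1b reach their highest wild-type mean at ZT14 (81.1 and 22.8 CPM) while the Bmal1-/- line stays lower there, and the diamond lies near the red line in most panels.

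Polyadenylation site usage, the share of a gene's site counts at 1 site, was tested for 11293 sites in 3624 genes. With all 12 libraries 8 sites passed (0.0708%), 7 used more (0.062%) and 1 used less (0.00886%) in Bmal1-/-, and 947 had an unadjusted p under 0.05 in edgeR. Without replicate 4, 9 of 11332 passed (0.0794%), 6 used more (0.0529%) and 3 used less (0.0265%), and 6 sites were in both sets. Sites lie within the gene named or up to 1000 bp past its end on the same strand, by the RefSeq GRCm38.p6 table, and the positions are those of the authors' site list. Whether a site is in an exon, an intron or a UTR is not analysed here.

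In 1810037I17Rik, the last of 3 sites (chromosome 3, 122926079 to 122926197, plus strand) held 40.1% to 75.3% of the counts in Bmal1-/- and 10.6% to 14.1% in wild type. The means were 57.9% ± 13.4 and 12.1% ± 1.33 (SD, n = 6), and the groups lay far apart, with replicate 4 at 12.9%, as in the other wild-type libraries (log2 2.26, SE 0.18, edgeR adjusted p 4.59e-05). The gene's level rose too (0.78, adjusted p 0.0375). In Ctsc, which encodes the lysosomal protease cathepsin C, the second of 3 sites (chromosome 7, 88310188 to 88310316, plus strand) held 74.5% ± 10.3 in Bmal1-/- and 34.8% ± 7.64 in wild type. Bmal1-/- replicate 2 was the lowest of its group at 54.0%, still above the highest wild-type library at 45.0% (log2 1.11, SE 0.14, adjusted p 0.0108), while the gene's level fell (-0.69, adjusted p 0.0133).

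Smaller shifts were found at 4 sites in genes whose level did not pass. The last of 2 sites of Gfer, which encodes a sulphydryl oxidase of the mitochondrion (chromosome 17, 24693186 to 24693279, minus strand), went from 4.25% ± 1.01 in wild type to 14.1% ± 5.77 (SD, n = 6; edgeR adjusted p 0.0198). At the second of 3 sites of Acat2, an acetyl-CoA acetyltransferase gene (chromosome 17, 12943632 to 12943699, minus strand), usage went from 10.1% ± 1.15 to 17.7% ± 3.34 (adjusted p 0.0198), and at the second of 3 sites of Sp1, a general transcription factor gene (chromosome 15, 102432365 to 102432389, plus strand), from 9.51% ± 0.922 to 16.2% ± 2.15 (adjusted p 0.0372). Slc1a2, a glutamate transporter gene, used the last of its 7 sites less (chromosome 2, 102790574 to 102790783, plus strand), at 28.0% ± 3.29 against 40.9% ± 3.23 (adjusted p 0.0198). Neither group reached into the other at any of these sites, as was so for 0.806% of all sites tested.

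At Fam89a, the first of 3 sites (chromosome 8, 124740540 to 124740589, minus strand) held 39.2% to 70.6% of the counts in 5 Bmal1-/- libraries and 0.877% in replicate 1. In wild type it was at 0 in 5 libraries and at 0.353% in replicate 4 (edgeR adjusted p 0.012). The eighth site, in Sec23ip (chromosome 7, 128783931 to 128784005, plus strand), lies in a gene below the count minimum of the naming rule and is given because the called sites are few; usage there was 73.5% ± 7.81 against 33.9% ± 8.48 (adjusted p 0.0108).

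Without replicate 4, the calls at Sp1 (adjusted p 0.084) and Fam89a (adjusted p 0.189) were lost and 3 sites were added, in Pnkd, Id2 and Cyp2d40. At the first of 2 Pnkd sites usage was 11.1% to 17.0% in Bmal1-/- and 27.1% to 46.9% in 5 wild-type libraries, with replicate 4 at 15.3% (adjusted p 0.00553 without it). At the first of 3 Id2 sites it was 4.36% to 7.54% against 10.8% to 15.1%, with replicate 4 at 5.90% (adjusted p 0.0105). At the first of 2 Cyp2d40 sites it was 21.3% to 55.4% against 13.7% to 20.04%, with replicate 4 at 36.7% (adjusted p 0.0356). At all 3 of these sites replicate 4 lay inside the Bmal1-/- range. Of the 7 sites described other than that of Sec23ip, those of 1810037I17Rik and Ctsc kept their call whichever single library was left out. In a test of each site against the rest of its gene (diffSpliceDGE in edgeR), the calls at Ctsc, Slc1a2, Acat2 and Sp1 were lost (adjusted p 0.946 or higher), and those at 1810037I17Rik, Gfer and Fam89a held. Leaving out wild-type replicate 2 or 3 ended the calls at Gfer, Acat2, Slc1a2, Sp1 and Fam89a, leaving out wild-type replicate 5 or 6 those at the first 4 of these, and leaving out wild-type replicate 1 those at Acat2 and Sp1. Among Bmal1-/- libraries, leaving out replicate 6 ended the calls at Acat2, Slc1a2 and Sp1, replicate 4 those at Slc1a2 and Sp1, and replicate 2 or 3 that at Sp1. Over all sites, 16 passed without Bmal1-/- replicate 1, 5 without Bmal1-/- replicate 6, 4 without wild-type replicate 5 or 6, 3 without wild-type replicate 2 and 2 without wild-type replicate 3.

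Averaged over the 3624 genes, the share at the most 3′ site was 45.1% ± 1.59 (SD, n = 6) in Bmal1-/- and 44.4% ± 1.88 in wild type. The difference of 0.699 percentage points was within the spread of the libraries (43.8% to 47.2% against 41.7% to 46.1%; exact 2-sided permutation test over 924 splits, p = 0.491, smallest possible p 0.00216).

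**Figure D5:**
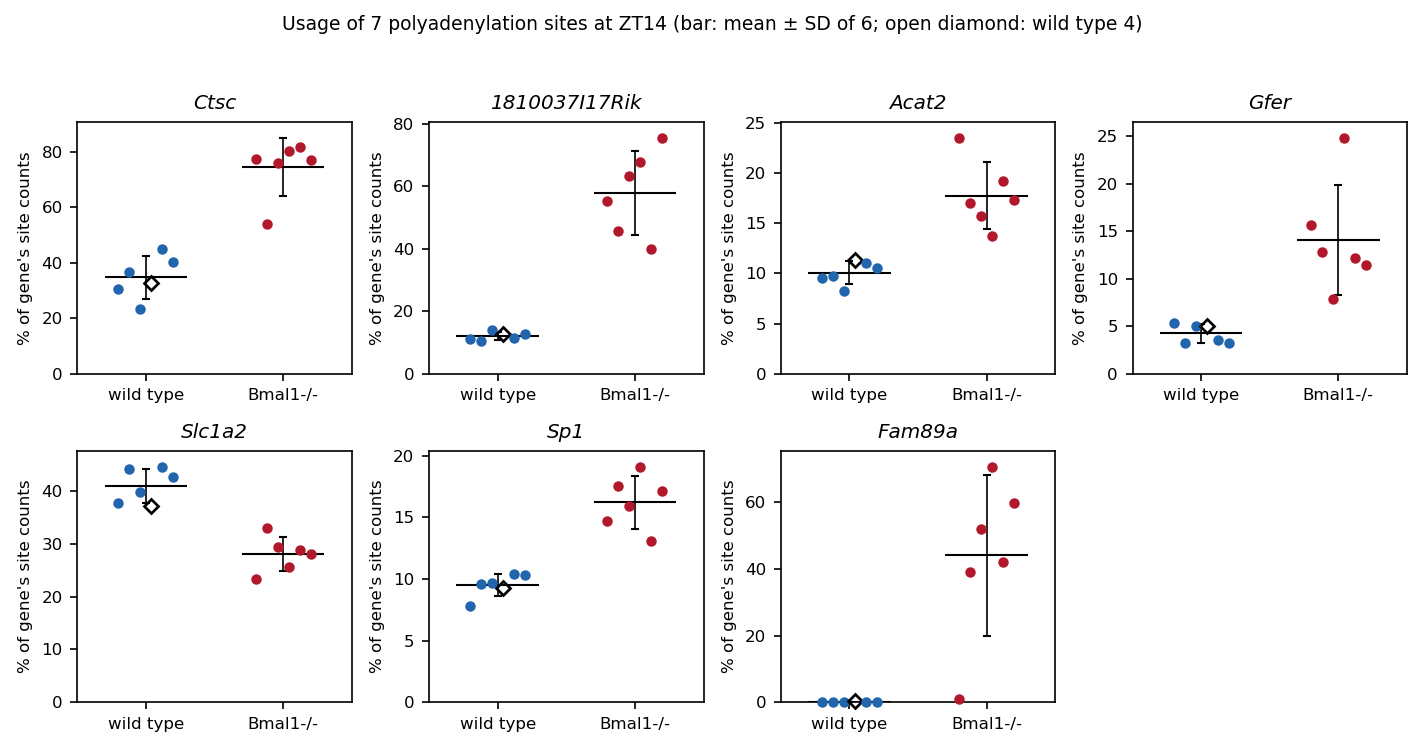
Usage of 7 polyadenylation sites (% of the gene's site counts) in each ZT14 library, with the mean ± SD of 6 as bars and wild-type replicate 4 as an open diamond. The groups do not overlap at any of the 7 sites, and the diamond lies with the other wild-type points in each; the low Bmal1-/- point at Fam89a is replicate 1, at 0.877%.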

How the data were processed

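The authors deposited raw counts per gene symbol (51912 genes) and per polyadenylation site (86780 sites) for 144 libraries, with 1 column per library, per the file headers, and both tables were used as deposited. STAR 2.4.2a, HOMER and edgeR, and the builds mm10 and GRCm38.p5, are named without a role in the submitters' processing notes. The deposited counts carry no molecular identifiers in the sources used here, and intervals cover counting error only. Columns without a sample numbered 0.

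Testing used edgeR 4.0.16 under R 4.3.3, by robust quasi-likelihood fits with TMM factors and genotype alone, on genes averaging 10 counts or more over the libraries fitted, with Benjamini-Hochberg adjustment over all genes tested and a threshold of 0.05. The SE is the size of the log2 ratio over the square root of F. Departure at ZT14 is a contrast over 12 groups and 72 libraries. RefSeq (GRCm38.p6) gene positions, with strands from its promoter table, placed 21800 of the 29199 sites in the authors' filtered list in 7332 genes; genes without a strand entry received no site. The 509 sites of genes whose summed site counts were under 0.3 or over 1.5 times their gene count were left out. The build was checked by the share of sites no more than 25 bp from a gene's annotated end, which was 17.0% as placed and 0.0719% when all were moved by 5000 bp. Usage tests took the counts per site, offset by the log of the summed counts of the gene plus 0.5. A gene needed 2 sites that each held 5% of its counts, and an average of 50 counts. The scripts were tested on simulated counts.

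The members, gene lists and cell markers were chosen with earlier results of these data known. Named are all clock genes; in each other list up to 2 rises and 2 falls, the largest that passed and averaged 20 counts or more; over all genes the 8 largest rises and 8 largest falls with at least 50 counts, the same direction in replicates 1 to 3 and 4 to 6, and groups apart; the 5 largest departures each way; and the sites with the largest differences in genes with at least 100 counts. Other genes of the lists were named after their values were seen, as were those called only without wild-type replicate 4. Alternatives tried were RLE factors, DESeq2 1.42.0, a minimum of 1 count, replicate and set terms, each set of 3 replicates alone, the fit over all 72 total RNA libraries, other usage minima and test, and each library left out. All results without wild-type replicate 4 combined with another setting were added after seeing the data. A promoter was matched by symbol for 8563 of the 12119 genes tested. Some genes of the lists are included in the counts but not reported here by name.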

Additional observations from a re-analysis of the deposited data

Results flagged for a closer look

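A sample was marked where its gap to the nearest library of its group, divided by the range of the group, passed Dixon's critical value for 6 samples. Of 180 groups examined (90 genes and sites in 2 genotypes), 33 were marked, 24 of them through wild-type replicate 4. The nominal rate of about 5% holds for independent groups of normally distributed values. These groups share the same 12 libraries and some hold mostly zeros, so the count of marks cannot be set against that rate.

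Wild-type replicate 4 was the highest of its group for Npas2 (6.06 CPM, next 0.220, gap ratio 0.964), Sult1e1 (3.78 CPM, next 0.439, 0.884), Irs2 (22.7 CPM, next 5.89, 0.847), Cdkn1a (115 CPM, next 20.7, 0.843) and Sgk1 (21.8 CPM, next 7.65, 0.818). It was also the highest for Arhgap10 (gap ratio 0.804), Cyp2c29 (0.789), Prlr (0.75), Avpr1a (0.735), Magi1 (0.722), Fst (0.704), Cbs (0.701), Cry1 (0.686), Stat5b (0.68) and Gckr (0.656). The same library was the lowest for Gys2 (25.9 CPM, next 74.9987, 0.846), Wee1 (4.24 CPM, next 12.3, 0.75) and Slc37a4 (64.3 CPM, next 121, 0.741), and for Foxo3 (0.723), Nrg4 (0.713), Nr1d2 (0.701), Homer2 (0.674) and Nmrk1 (0.639). At the Fam89a site it was the only wild-type library above 0 (0.353%, gap ratio 1).

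Wild-type replicate 2 was the highest of its group for Acot3 (94.9 CPM, next 19.7, gap ratio 0.795), Gsta1 (25.4 CPM, next 5.83, 0.794), Gsta2 (36.7 CPM, next 11.1, 0.761) and Vnn1 (66.5 CPM, next 34.1, 0.656). Wild-type replicate 5 was the highest for Ccnd1 (62.8 CPM, next 38.3, 0.705). In Bmal1-/-, replicate 6 was the only library with Bhlhe41 counts (0.309 CPM, gap ratio 1) and replicate 3 the highest for Ciart (0.418 CPM, 0.748), both from 4 counts or fewer in the group. Replicate 2 was the highest for Hspb1 (1.76 CPM, next 0.843, 0.65) and the lowest at the Ctsc site (54.0%, next 76.1%, 0.794).

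The genotype difference at ZT14 departed from that at the other 5 times by the contrast over 72 libraries for Homer2 (edgeR adjusted p 0.0224, log2 -0.93), Magi1 (0.0224, 0.77), Tef (0.0224, -1.09) and Wee1 (0.0421, -1.32).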

How the results depend on the processing

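Of the 76 genes under the naming rule that passed, 55 kept their call without each single library and 21 lost it at least once; of the 7 named sites, 2 kept it, and 3 kept it under diffSpliceDGE. No ZT14 ratio of a named gene and no named site was reversed under any alternative; 1892 values stayed on the same side of the threshold, 370 lost the call and 31 gained it. Genes changed numbered 566 to 1741 with 1 library left out and 12 within replicates 4 to 6. Settings added after seeing the data, without wild-type replicate 4, gave 2105 (DESeq2), 1989 (set of replicates as a factor), 1739 (RLE factors) and 1075 (replicates 4 to 6), and the replicate block without both replicates 4 gave 1532. With all libraries DESeq2 called 1463, RLE factors 1019, no filter beyond 1 count 949, the set factor 1096 and the 72-library fit 1178. Genes departing at ZT14 numbered 7 with RLE factors, 16 with genotype by set terms, 10 within replicates 1 to 3, 0 within replicates 4 to 6 and 0 to 113 with 1 library left out. Sites numbered 1 within replicates 1 to 3, 3 within replicates 4 to 6 and 2 to 16 with 1 library left out. The difference in mean distal usage ran from 0.0316 to 1.04 points over its alternatives and passed in none. The cause of these changes was not tested.

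Replicate numbers were shared between groups, but only 4 of 6 same-numbered pairs had correlated deviations over 0.1 (-0.09 to 0.27), and 2 of 6 Bmal1-/- libraries correlated best with their own number, so the numbers are not taken as pairs. With the replicate block, calls were lost for Usp2, Cyp4a10, Gckr, Trib1, Gsta1, Apcs and Gsta2 and for the Acat2 and Sp1 sites (adjusted p 0.0514 to 0.107), and Rora passed (0.0254). The block gave 1104 genes, 17 departing genes and 9 sites, and a difference in mean distal usage of 0.699 points with exact p = 0.375. Bhlhe41, with a mean of 8.75 counts, was left out by the minimum of 10 counts.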
